A study of Saccharomyces cerevisiae with 3 samples.

Results

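Glycolysis splits glucose into pyruvate, and alcoholic fermentation turns pyruvate into carbon dioxide and ethanol while restoring the cofactor that glycolysis consumes. In wine yeasts these enzymes carry nearly all of the sugar flux. Several steps are encoded by duplicated genes, of which one copy usually carries the flux on sugar and the others are used at other times. The genes examined here are the 32 genes of this route in Saccharomyces cerevisiae, from the hexokinases through pyruvate kinase, the enolase-related ERR genes, the pyruvate decarboxylases and the alcohol dehydrogenases ADH1 to ADH7. The list was drawn up by pathway role and taken from the table by systematic name, with earlier results of these data known. All 32 were present in the array table and had a value in all 3 samples, out of 6123 open reading frames (ORFs) with complete values.

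The study compared the genomic DNA of 3 strains by array comparative genomic hybridisation: R2 IVo, an artificial intraspecific hybrid, and its parents Sc1 and Sc2. Cultivation and drying on an industrial protocol are stated for every sample, and genotype, ploidy and further origin of the strains were not stated in these sources. Each sample is 1 pair of strains (R2 IVo with Sc1, R2 IVo with Sc2, and Sc1 with Sc2), and the authors combined duplicate arrays and dye swaps into 1 log ratio per ORF. Ratios are read as log2 with the first-named strain on top. Both readings are likely and not stated, and with the opposite direction every sign below would turn.

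A value of 0 means equal hybridisation of both DNAs. A negative value can reflect fewer copies in the first strain, sequence that matches the probe less well, or fewer related copies elsewhere, and the ratios do not tell these apart. Probe sequences were not used here, and how far duplicated genes such as TDH2 and TDH3, ENO1 and ENO2, or the closely similar ERR genes share signal was not tested. The values concern DNA and say nothing of expression.

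Ratios along the route from glucose to ethanol were close to 0 in each pair of genomes. Of the 32 genes, 1 differed between any pair of strains by the test used: HXK1 (YFR053C), which encodes hexokinase 1, an enzyme that phosphorylates glucose and fructose, had a lower ratio in Sc1 than in Sc2. That call was marginal and was lost in 5 of 7 alternative settings. Among the main genes of the route, HXK2 (YGL253W), CDC19 (YAL038W), PDC1 (YLR044C) and ADH1 (YOL086C) had estimates no larger than 0.144 in size in any comparison. PFK1 had an estimate of −0.15 in Sc1 over Sc2, and PFK2 of −0.15 for the hybrid against either parent. TDH2 had one of 0.17 in R2 IVo over Sc1. PGK1 and GPM1 had larger Sc1 over Sc2 estimates, −0.24 and −0.31. None of these was called. Each estimate comes from limma fitted to all 6123 ORFs with the 3 samples as the sides of a triangle, so that it joins the direct sample (the pair itself) with the indirect path (the 2 other samples combined). An ORF is described as called at a Benjamini-Hochberg adjusted p under 0.05 over all ORFs.

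In the R2 IVo over Sc1 comparison, 0 of the 32 genes were called by limma, against 0.67% of all ORFs, and 2 had an unadjusted p under 0.05, against 7.99% of all ORFs. In the R2 IVo over Sc2 comparison, 0 were called by limma, against 0.915% of all ORFs, and 3 had an unadjusted p under 0.05, against 7.95%. In the Sc1 over Sc2 comparison, 1 was called, lower in Sc1, against 1.98% of all ORFs (1.45% lower), and 4 had an unadjusted p under 0.05, against 9.57%. A share of 1 gene in 32 (3.12%) is near that background, and the count was 0 in 5 of 7 alternative settings.

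The estimates were also close in median size to those of the genome as a whole. Their median size was 0.044, 0.036 and 0.055 for R2 IVo over Sc1, R2 IVo over Sc2 and Sc1 over Sc2, beside 0.055, 0.053 and 0.055 over all ORFs. The signed medians were 0.021, −0.017 and −0.0065. Estimates under 0.1 in size were found for 26, 24 and 25 of the 32 genes. Those of at least 0.2 in size numbered 0, 3 and 4 (0%, 9.38% and 12.5%), beside 4.98%, 5.6% and 6.71% of all ORFs. That difference was not tested.

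**Figure D1:**
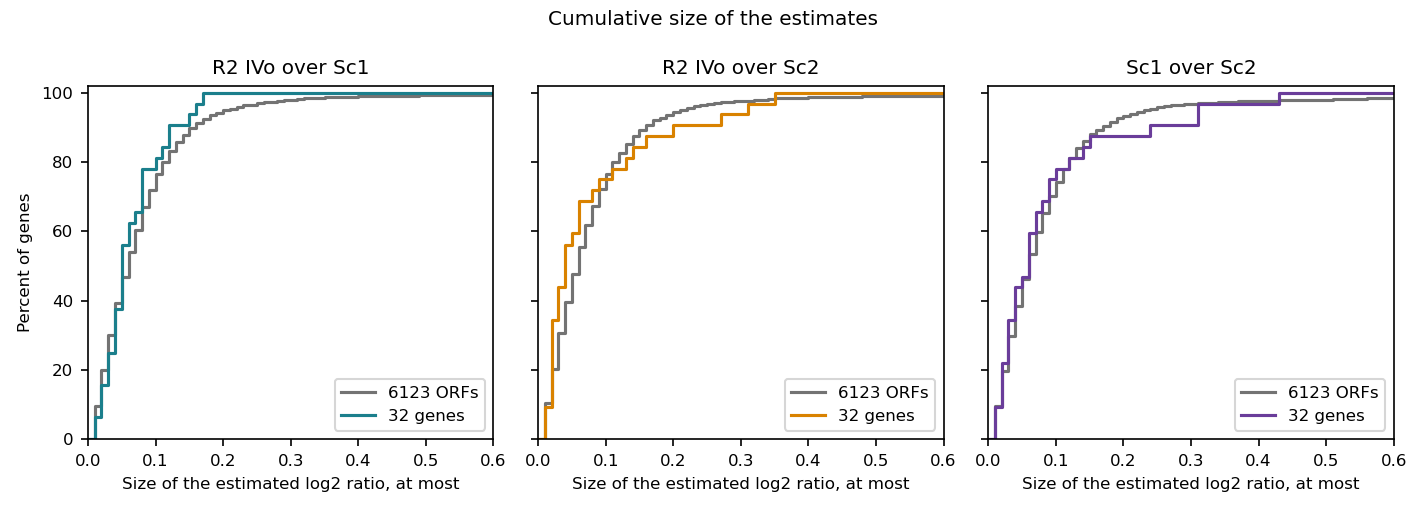
Cumulative percent of genes (vertical axis) whose estimated log2 ratio is at most a given size (horizontal axis), for the 32 pathway genes (coloured line) and 6123 ORFs (grey line) in each comparison. Under a size of 0.1 lie 81.2%, 75% and 78.1% of the 32 genes, beside 76.5%, 76.4% and 74% of all ORFs.

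Within the error model of the fit and the log2 reading, intervals bound how large an unnoticed difference could be. The 95% interval of limma, per gene and unadjusted, lay within a 1.5-fold difference in either direction (0.585 in log2) for 32 of the 32 genes in R2 IVo over Sc1, for 31 in R2 IVo over Sc2 and for 30 in Sc1 over Sc2. The corresponding shares over all ORFs were 98.8%, 98.3% and 97.5%. GPM1 was the gene outside in R2 IVo over Sc2, and GPM1 and HXK1 were those outside in Sc1 over Sc2. The intervals rest on the mismatch between direct sample and indirect path in these 3 samples and do not cover the spread between cultures. In simulated data the same fit gave more false calls than the nominal rate. Whether its 95% intervals hold the true value that often was not tested there, so these bounds are not firm. Signal shared with a duplicate gene could also hold a ratio near 0.

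**Figure D2:**
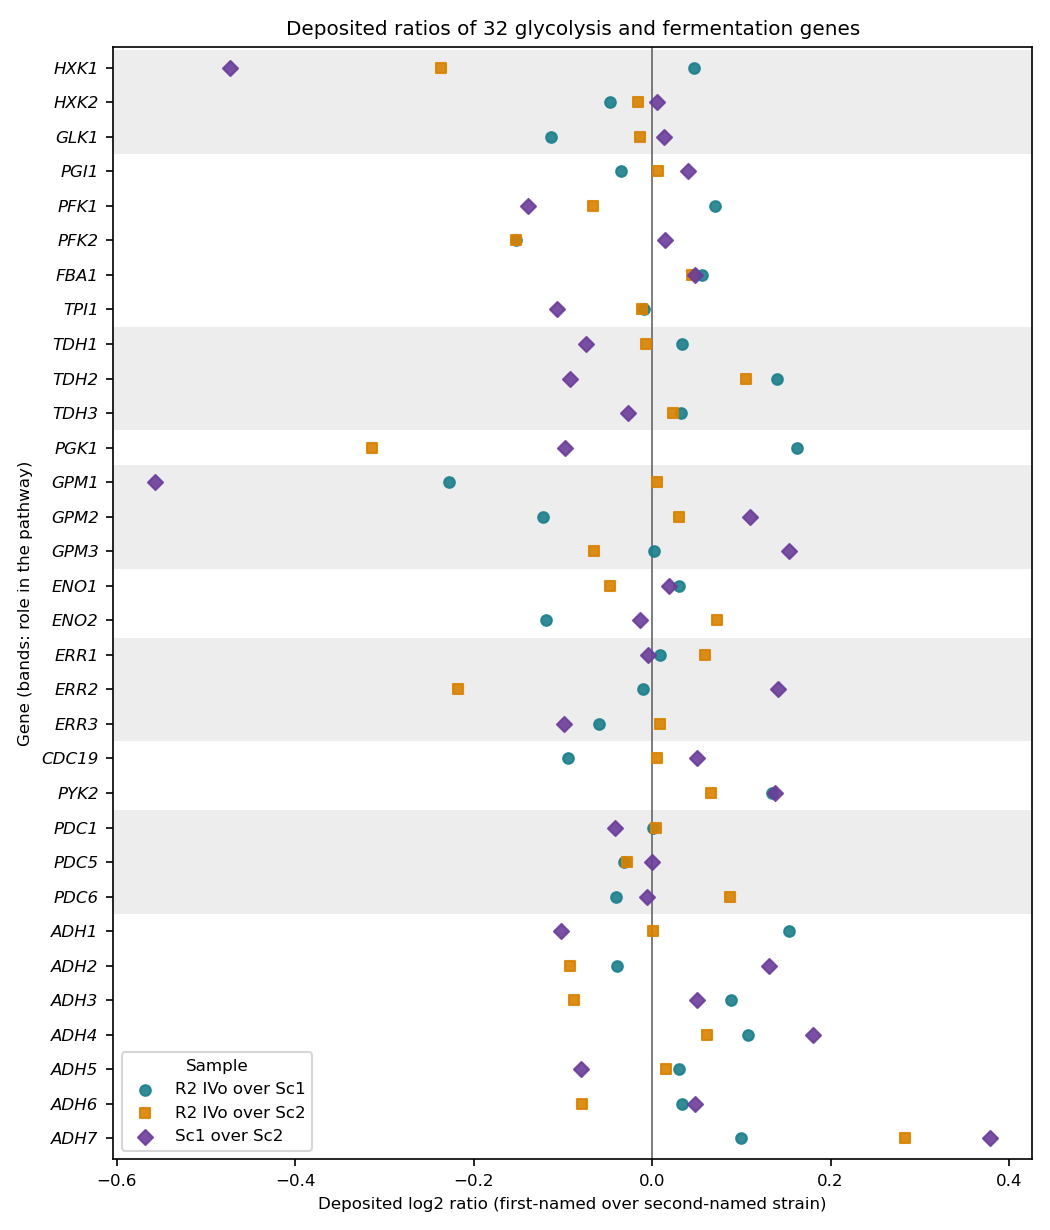
Deposited log2 ratio (horizontal axis) of the 32 genes in each of the 3 samples, with 1 point per sample and grey bands marking genes of one step. Most points lie near 0, while HXK1 (−0.473), GPM1 (−0.557) and ADH7 (0.379) stand farthest out in the Sc1 over Sc2 sample.

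Hexose phosphorylation opens the route. HXK1 had deposited ratios of 0.047 in R2 IVo over Sc1, −0.237 in R2 IVo over Sc2 and −0.473 in Sc1 over Sc2. In these values Sc1 was the lowest and Sc2 the highest, with the hybrid between them and nearer to Sc1. The fitted Sc1 over Sc2 value was −0.42 ± 0.071 (SE, 3 samples), a ratio of 0.746 with a 95% interval of 0.663 to 0.841 (limma adjusted p = 0.0451). The direct sample alone gave −0.486 after centring and the indirect path −0.294, so both had the same sign.

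The hybrid's HXK1 was at −0.30 ± 0.071 against Sc2 (limma adjusted p = 0.235) and at 0.12 ± 0.071 against Sc1 (limma adjusted p = 0.781), and neither was called. The call between the parents was marginal: HXK1 ranked 115 by p among the 121 ORFs called, and its limma adjusted p ran from 0.045 to 0.106 over the 7 alternative settings. The estimate itself stayed between −0.43 and −0.41. Its size was below the median of 0.861 among the ORFs called in that comparison.

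HXK2, the hexokinase that prevails during growth on glucose and also takes part in glucose repression, was at −0.047, −0.016 and 0.006 in the same order of samples. GLK1, which encodes glucokinase, was at −0.113, −0.013 and 0.013. Neither was called, and all of their intervals lay within 1.5-fold.

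HXK1 lies on the right arm of chromosome VI, and 4 measured ORFs lie between it and the chromosome end. None of the 3 measured neighbours on either side was called in any comparison. For Sc1 over Sc2 they ran from −0.10 at IRC7, which encodes a beta-lyase, to 0.11 at RPN12, which encodes a proteasome subunit, with a median of 0.0062. The adjacent ORFs RPN12 and YFR054C had deposited Sc1 over Sc2 ratios of 0.198 and 0.017, beside −0.473 for HXK1. The low ratio was thus seen at HXK1 and not at the measured ORFs beside it.

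**Figure D3:**
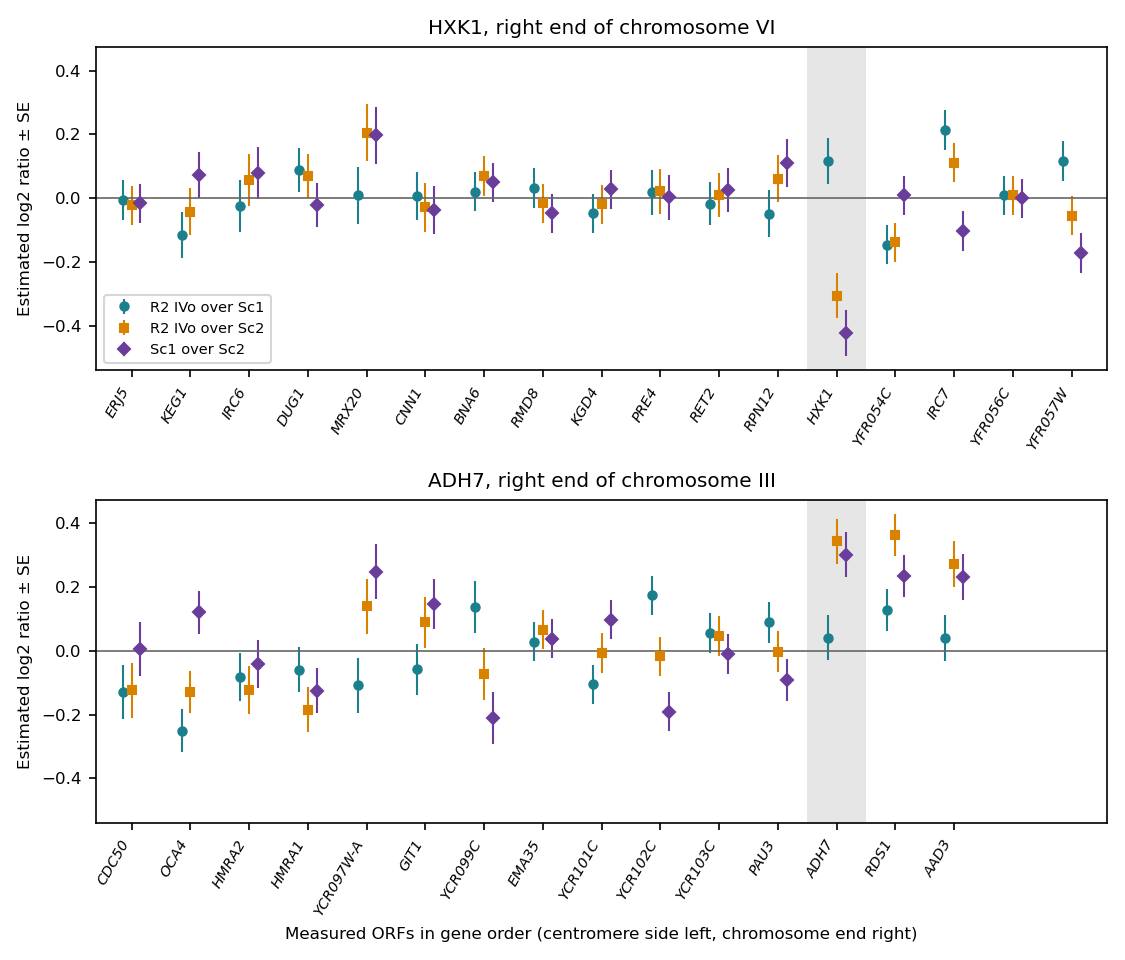
Estimated log2 ratio ± SE (vertical axis) of measured ORFs in gene order towards the right end of chromosome VI around HXK1 and of chromosome III around ADH7 (grey columns), in the 3 comparisons. HXK1 stands alone at −0.42 in Sc1 over Sc2, while ADH7, RDS1 and AAD3 lie at 0.34, 0.36 and 0.27 in R2 IVo over Sc2.

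Upper glycolysis showed no called gene among 5. PGI1 encodes glucose-6-phosphate isomerase, FBA1 aldolase and TPI1 triose-phosphate isomerase, and their estimates lay between −0.083 and 0.060 over the 3 comparisons. PFK1 (YGR240C) and PFK2 (YMR205C) encode the alpha and beta subunits of phosphofructokinase, the main controlled step of the route, and lie on chromosomes VII and XIII. PFK1 had deposited ratios of 0.07, −0.066 and −0.139.

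PFK2 had deposited ratios of −0.152, −0.153 and 0.015, low in both samples that hold the hybrid. Its estimates of −0.15 ± 0.061 against either parent had an unadjusted p of 0.0477 and 0.0453 and limma adjusted p of 0.618 and 0.611, so they were not called. Both values concern the same hybrid strain and are fitted from the same 3 samples, so they are not independent.

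Lower glycolysis begins with glyceraldehyde-3-phosphate. The 3 genes of glyceraldehyde-3-phosphate dehydrogenase were not called: TDH3, the most highly expressed of them, was at 0.032, 0.023 and −0.027, and TDH1 was at 0.034, −0.007 and −0.074. TDH2 (YJR009C) was at 0.14, 0.105 and −0.092 and had the highest R2 IVo over Sc1 estimate of the 32 genes, 0.17 ± 0.062 (limma adjusted p = 0.56).

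PGK1 (YCR012W), which encodes phosphoglycerate kinase, had deposited ratios of 0.162, −0.314 and −0.098. These do not add up, since the ratio of R2 IVo over Sc1 plus that of Sc1 over Sc2 should equal that of R2 IVo over Sc2 (closure): going from R2 IVo to Sc2 through Sc1 gives 0.057 after centring, where the direct sample gave −0.318. The estimate of −0.24 ± 0.093 for Sc1 over Sc2 was not called (limma adjusted p = 0.482). YCR013C, the next measured ORF by systematic name, was at −0.13, 0.041 and 0.024. Whether it overlaps PGK1 was not examined.

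GPM1 (YKL152C), which encodes the phosphoglycerate mutase active in glycolysis, departed further from closure than any other of the 32. Its deposited ratios were −0.228, 0.005 and −0.557. The direct sample put Sc1 below Sc2 at −0.57 after centring, while the indirect path put it above at 0.223. Its departure from closure, −0.793, compared with an SD of 0.188 over all ORFs, and its SE of 0.16 was the largest of the 32. No direction can be read from it, and the estimate of −0.31 was not called (limma adjusted p = 0.652).

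GPM2 and GPM3, homologues of GPM1 without a clear role in glycolysis, had estimates between −0.10 and 0.11. None of the 6 measured neighbours of GPM1, of PGK1 or of TDH2 was called in any comparison, and their estimates ran from −0.24 to 0.21. YKL153W, next to GPM1 in this order, had estimates of −0.051, −0.015 and 0.036. Neighbours were taken by systematic name, and whether any of them overlaps the gene beside it was not examined. Closure failed by at least 0.3 in 3 of the 32 genes (9.38%), namely GPM1, PGK1 and ERR2, beside 8.82% of all ORFs.

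**Figure D4:**
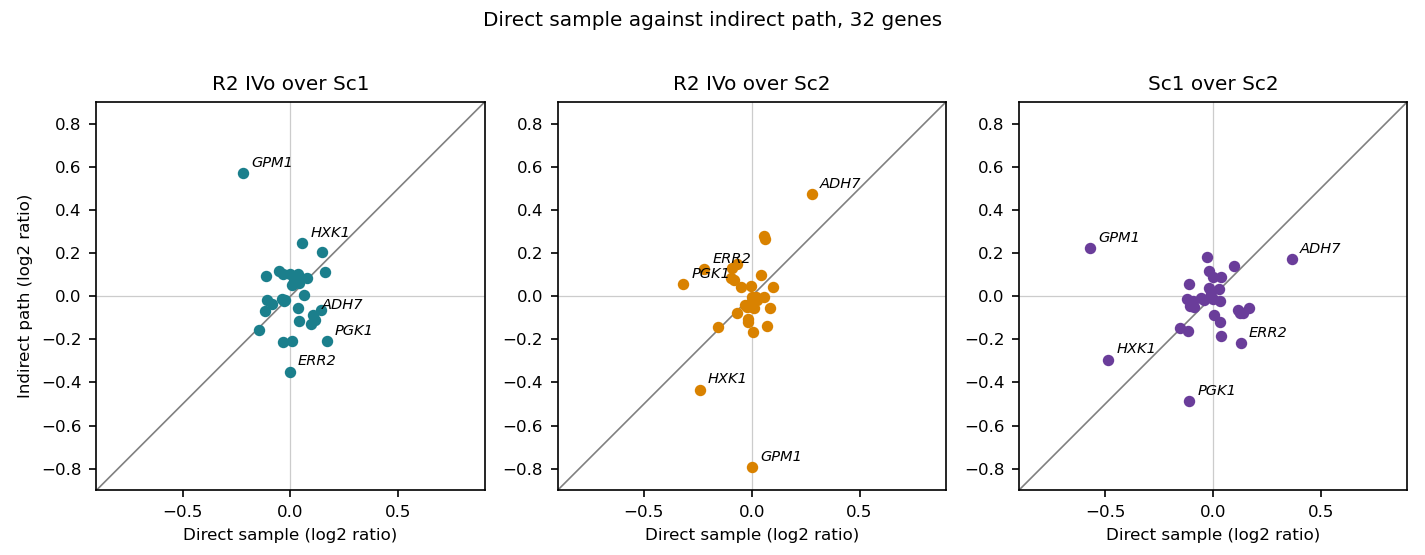
Centred log2 ratio of the direct sample (horizontal axis) against that of the indirect path (vertical axis) for the 32 genes, with the line of equality. HXK1 and ADH7 have the same sign on both axes for Sc1 over Sc2 and for R2 IVo over Sc2, while GPM1 lies at −0.57 and 0.223 for Sc1 over Sc2.

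Enolase and pyruvate kinase close glycolysis. ENO1 and ENO2, the enolase genes, had estimates between −0.044 and 0.043. ERR1, ERR2 and ERR3, the enolase-related genes, had estimates between −0.12 and 0.036. Counted from the ends of chromosomes XV, XVI and XIII, they rank 2, 3 and 4 among measured ORFs, the outermost being 1. The lowest deposited value among them was −0.218, at ERR2 in R2 IVo over Sc2, where the path through Sc1 gave 0.124 after centring.

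CDC19, the main pyruvate kinase gene on sugar, was at −0.094, 0.006 and 0.05, and PYK2, the minor one, at 0.134, 0.066 and 0.138. The ratios of PYK2 were all above 0, but its estimates of 0.072, 0.13 and 0.057 (SE 0.072) were not called. None of these 7 genes was called in any comparison, and every interval lay within 1.5-fold.

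**Figure D5:**
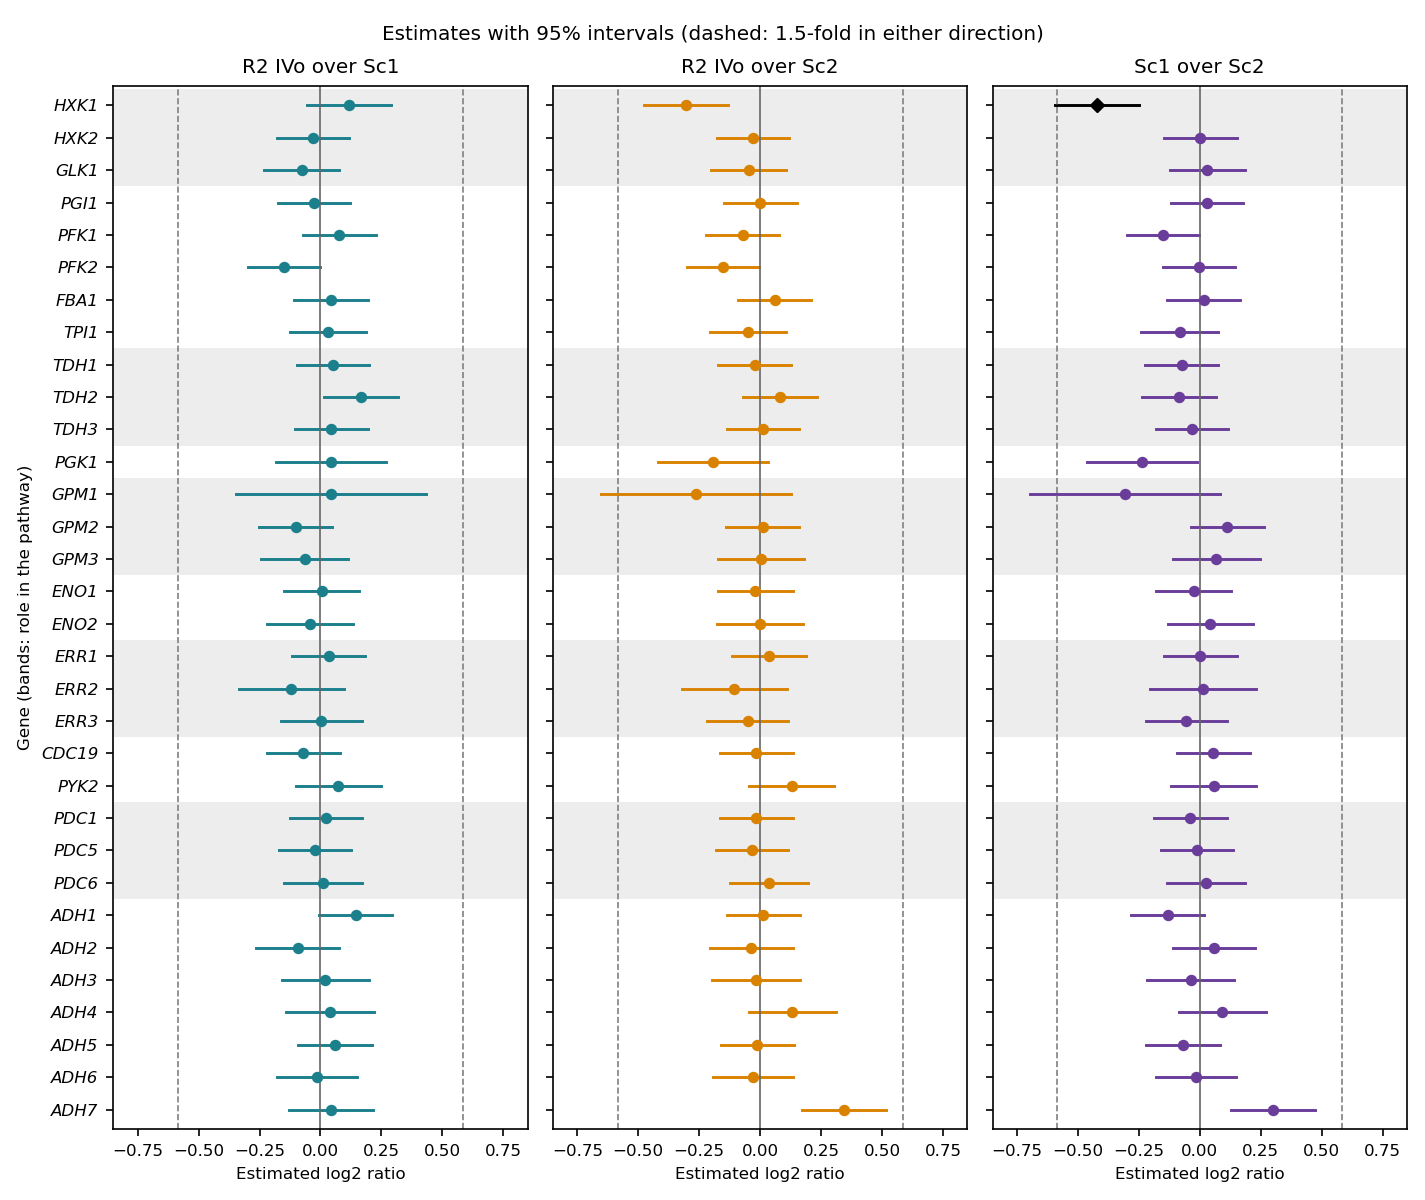
Estimated log2 ratio with its 95% limma interval (horizontal axis) for the 32 genes in the 3 comparisons, dashed lines marking a 1.5-fold difference and the black diamond the called gene. HXK1 in Sc1 over Sc2 is the called gene at −0.42, and GPM1 has the widest intervals.

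Pyruvate decarboxylase, which commits pyruvate to ethanol, was the most even step with more than 2 genes. PDC1, the main gene, was at 0.001, 0.004 and −0.041. PDC5, which can replace it, was at −0.032, −0.028 and 0, and PDC6, a minor gene, was at −0.04, 0.087 and −0.006. The 9 estimates of these genes ran from −0.038 to 0.038.

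Among the 7 alcohol dehydrogenase genes, 0 were called by limma in any comparison. ADH1, which reduces acetaldehyde to ethanol, was at 0.154, 0.001 and −0.102, and its estimates were 0.14, 0.013 and −0.13 (SE 0.062). ADH2, which oxidises ethanol once sugar is spent, was at −0.039, −0.092 and 0.131. The mitochondrial enzyme's gene ADH3, and ADH5 and ADH6, had estimates between −0.070 and 0.059.

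ADH4 (YGL256W), an end gene of the left arm of chromosome VII, was at 0.108, 0.062 and 0.18, with estimates of 0.040, 0.13 and 0.093 (SE 0.074). ADH7 (YCR105W), which encodes an NADPH-dependent enzyme of the cinnamyl alcohol dehydrogenase family, is the outermost of the 7 genes and was at 0.1, 0.283 and 0.379. These values place Sc2 lowest, with the hybrid and Sc1 close together. Its estimate against Sc2 was 0.34 ± 0.071 for the hybrid, a ratio of 1.27 (limma adjusted p = 0.167), and 0.30 ± 0.071 for Sc1, a ratio of 1.23 (limma adjusted p = 0.167), and between R2 IVo and Sc1 it was 0.042. These were not called, and the unadjusted p values were 0.00256 and 0.00488.

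ADH7 lies at the right end of chromosome III. The 2 measured ORFs beyond it, RDS1, which encodes a zinc cluster protein, and AAD3, which encodes a putative aryl-alcohol dehydrogenase, had R2 IVo over Sc2 estimates of 0.36 and 0.27 and Sc1 over Sc2 estimates of 0.24 and 0.23. PAU3, the neighbour on the inner side, was at −0.003 and −0.092. None of these ORFs was called, with limma adjusted p of 0.109 for RDS1 and 0.352 for AAD3 in R2 IVo over Sc2. For Sc1 over Sc2 the values of RDS1 and AAD3 lay within the range of nearby ORFs further inside the arm. Those inner ORFs ran from −0.21 at YCR099C to 0.25 at YCR097W-A. In R2 IVo over Sc2 the inner ORFs ran from −0.18 at HMRA1 to 0.14 at YCR097W-A, and ADH7, RDS1 and AAD3 lay above that range. This difference was not tested.

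Position along the chromosome was also compared. Of the 32 genes, 8 lie among the 20 outermost measured ORFs of a chromosome end: HXK1, HXK2, ERR1, ERR2, ERR3, ADH4, ADH6 and ADH7. Over the genome, 11.4% of 640 such end ORFs and 0.844% of 5450 interior ORFs were called in Sc1 over Sc2; the difference between these shares was not tested. The called member, HXK1, and the member with the highest estimate, ADH7, are both end genes, while GPM1 and PGK1, next in size, are interior. The median size was 0.037, 0.079 and 0.036 for the 8 end genes in R2 IVo over Sc1, R2 IVo over Sc2 and Sc1 over Sc2, and 0.049, 0.029 and 0.056 for the 24 interior ones, so neither set was larger throughout.

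The enzymes and regulators that feed or drain the route held a called pair of regulators. Of 36 such genes (regulators, fructose-2,6-bisphosphate enzymes, gluconeogenesis, glycerol, acetaldehyde and acetate, further alcohol and hexose enzymes), 1 was higher and 1 lower in R2 IVo over Sc1, 0 were called in R2 IVo over Sc2, and 1 was higher and 1 lower in Sc1 over Sc2, all by limma, beside 0.67%, 0.915% and 1.98% of all ORFs. At an unadjusted p under 0.05 there were 5, 3 and 7 of the 36, beside 7.99%, 7.95% and 9.57% of all ORFs. ZNF1, a zinc cluster regulator of respiratory and fermentative genes on the left arm of chromosome VI, had deposited ratios of −0.944, 0.089 and 0.875.

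REE1, linked to the regulation of enolase and located on the left arm of chromosome X, had ratios of 5.628, 0.011 and −2.525, of which the values above 1 in size had their decimal point restored. They depart from closure by 3.09. Of 7 alternative settings, 2 kept its call in R2 IVo over Sc1 and not in Sc1 over Sc2, and 5 gave it no call, including 1 that leaves the ORF out. ZNF1 was called in both comparisons in all 7. The ORFs beside ZNF1 and REE1 were not examined here, so whether their calls extend to neighbouring genes is not shown. The remaining 34 genes were not called. Their estimates ran from −0.25 at PFK26 to 0.19 at MIG1 in R2 IVo over Sc1, from −0.21 at PYC2 to 0.16 at GPP2 in R2 IVo over Sc2, and from −0.20 at PYC2 to 0.22 at BDH1 in Sc1 over Sc2.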

How the data were processed

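Genomic DNA of each pair of strains was cut with Hinf I, labelled with Cy3 and Cy5 and co-hybridised, per the labels, which also state duplicate arrays and dye swaps. The deposited table holds 1 value per ORF and sample, a score read as a log2 ratio; how the arrays were scanned, corrected, normalised and averaged is not stated in these sources. Signal over background is therefore unknown, and the number of arrays limits the precision. Base 2 is a reading: it makes the largest ratio 49.5-fold, against 278-fold for a natural logarithm. In 57 ORFs, 76 whole-number cells of at least 1000 in size were divided by 1000, none of them among the 32 genes. The title directions gave the smallest SD of closure (R2 IVo over Sc1 plus Sc1 over Sc2 minus R2 IVo over Sc2), 0.188, against 0.286 to 0.416 with any single sample turned; turning all 3 together cannot be told apart. Of 6180 entries, 2 control spots and 55 ORFs with a missing value were left out. Symbols come from RefSeq R64 locus tags (all 32 genes and 5674 of 6178 ORFs matched), and gene order comes from systematic names.

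Samples were centred on their median and fitted with limma 3.58.1 (R 4.3.3; lmFit, eBayes), with 1 residual degree of freedom per ORF, a prior of 5.30 degrees of freedom and Benjamini-Hochberg adjustment. Nothing says that samples come from separate cultures. The p-values rest on the departure of each ORF from closure, moderated by that prior, and do not measure the spread between cultures. An error shared by both samples of a strain cancels in closure and is not measured. The fit was tested on simulated data, where false calls exceeded the nominal rate. The 32 genes, the list of 36 further genes and the tests were chosen with earlier results of these data known. Named genes are the 32, the called genes of the further list, and 3 measured neighbours on each side of HXK1 and of the 4 further genes with the largest estimates. PFK26, MIG1, PYC2, GPP2, BDH1, HMRA1, YCR097W-A and YCR099C fall outside that rule and were named as the ends of ranges after their values were seen. The size limits of 0.1, 0.2 and 0.3 and the 20 outermost ORFs were also set then.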

Additional observations from a re-analysis of the deposited data

How the results depend on the processing

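The count of called genes among the 32 stayed at 0 by limma for R2 IVo over Sc1 and R2 IVo over Sc2 under all 7 alternative fits, and became 2 and 3 at an unadjusted p under 0.05. For Sc1 over Sc2 it was 1 with samples brought to a common scale and with robust moderation. It was 0 when ORFs whose decimal points had been restored were left out, without centring, with centring on the mode, with prior degrees of freedom of 4 and without 90 ORFs of multi-copy families, and 4 at an unadjusted p under 0.05. HXK1 was the gene lost, with estimates of −0.42, −0.41, −0.43, −0.42 and −0.42 and limma adjusted p of 0.0553, 0.0888, 0.0568, 0.106 and 0.056 in that order; the cause was not tested. No other of the 32 genes was called in any of the 7 fits, and the lowest adjusted p among them was 0.134, at ADH7 in R2 IVo over Sc2 with a common scale. Called genes of the further list numbered 2 with a common scale and without multi-copy families, and 1 when ORFs whose decimal points had been restored (REE1 among them) were left out, without centring, with centring on the mode, with robust moderation and with prior degrees of freedom of 4. The counts of genes with an interval within 1.5-fold stayed between 30 and 32. Taken alone, the direct sample moved 15 of 96 estimates by more than their SE and the indirect path 45 of 96. The shift has the same size in all 3 comparisons of a gene, so the 96 are not independent checks. HXK1 kept its sign in Sc1 over Sc2 on both the direct sample and the indirect path. Over all ORFs the fits run called between 15 and 41 ORFs for R2 IVo over Sc1, between 15 and 56 for R2 IVo over Sc2 and between 61 and 121 for Sc1 over Sc2; the lowest counts (0.247%, 0.247% and 1.01%) came when ORFs whose decimal points had been restored were left out. No paired analysis was possible because each pair of strains has 1 sample.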
